A study of Mus musculus with 4 samples.

Results

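Mouse chromosomes 7 and 16 held the fewest H3K36me2 peaks per Mb of the 19 autosomes in both peak lists of the study, and the peaks that were still listed there are described here. They were chosen by that low density, and every peak on the 2 chromosomes is included. They number 180 of the 7699 peaks in the melatonin list and 178 of the 8361 peaks in the untreated list, 358 of 16060 in all. The cells were cultured mesenchymal stem cells (MSCs), the adherent stromal cells of bone marrow that can form bone, cartilage and fat, taken from mice and grown in DMEM with 10% FBS. The melatonin cells were given 1 µM melatonin, the hormone of the pineal gland, for 24 h, and the untreated cells were not. Each condition had 1 library of chromatin immunoprecipitated with an H3K36me2 antibody and 1 input library without antibody, made by tagmentation of the DNA with a loaded transposase. The labels give no strain, sex or age for these cells, and the design text of the series speaks of old donors. The treatment text shared by all libraries names melatonin, so the groups follow the treatment given sample by sample. Peak lists hold no expression, so the cell type could not be checked against markers. With 1 library per condition, no difference between the conditions has a replicate check, and no test was made.

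H3K36me2 is histone H3 dimethylated at lysine 36. Enzymes of the NSD family and ASH1L write it over broad stretches of active chromatin, both inside genes and between them, and SETD2 turns it into the trimethyl mark over the bodies of transcribed genes. Where H3K36me2 is present the repressive mark H3K27me3 is usually low, and H3K36me2 is known to recruit the DNA methyltransferase DNMT3A to intergenic DNA.

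Per the file headers, the peaks came from 1000 bp windows with a tag threshold of 18 with melatonin and 17 untreated. They also needed at least 4 times the tags of the input, after scaling of the deeper library, and a Poisson p over input of 1e-04. The scores of the listed peaks reach these thresholds, while the listed ChIP tags go down to 13.5 with melatonin, where they are scaled to the input, and 14.5 untreated on the 2 chromosomes. A missing peak therefore says that a window did not pass these limits, not that the mark was absent. The libraries held 14180076.5 tags with melatonin and 13198427.5 untreated, of which 1.12% and 1.24% lay in peaks. At that depth the headers expect 7.09 tags per 1000 bp with melatonin and 6.6 untreated, and most listed peaks rest on few tags.

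With few peaks on chromosomes 7 and 16, few gene starts can lie in one, and the counts that follow show no more than that density. Of 3868 RefSeq promoter windows on the 2 chromosomes, each reaching from 250 bases before to 50 bases after a start, 1 touched a melatonin peak and 2 touched an untreated peak, all on chromosome 7. On the 17 other autosomes 66 of 27528 windows (0.24%) touched a melatonin peak and 45 (0.163%) touched an untreated peak. The windows are those of Zfp583, which encodes a zinc finger protein, and of the long noncoding RNA genes 1700010L04Rik and Gm28077. They are printed because they are the gene starts in which the remaining peaks can be read as sequence, from the RefSeq table of build GRCm38.p6, with each CG, the dinucleotide that carries DNA methylation, in capitals.
Zfp583, chr7:6330385-6330684, minus strand: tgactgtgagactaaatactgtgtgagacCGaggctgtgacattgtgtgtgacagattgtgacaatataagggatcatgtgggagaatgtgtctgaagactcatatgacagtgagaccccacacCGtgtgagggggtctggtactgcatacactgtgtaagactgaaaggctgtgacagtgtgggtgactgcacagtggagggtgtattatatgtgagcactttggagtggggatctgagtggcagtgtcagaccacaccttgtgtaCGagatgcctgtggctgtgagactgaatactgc
1700010L04Rik, chr7:82851349-82851648, plus strand: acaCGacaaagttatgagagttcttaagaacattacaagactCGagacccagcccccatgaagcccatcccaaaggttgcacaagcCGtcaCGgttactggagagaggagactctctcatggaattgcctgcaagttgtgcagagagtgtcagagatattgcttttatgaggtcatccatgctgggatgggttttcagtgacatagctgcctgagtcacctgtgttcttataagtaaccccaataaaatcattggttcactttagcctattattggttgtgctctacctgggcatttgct
Gm28077, chr7:37300314-37300613, plus strand: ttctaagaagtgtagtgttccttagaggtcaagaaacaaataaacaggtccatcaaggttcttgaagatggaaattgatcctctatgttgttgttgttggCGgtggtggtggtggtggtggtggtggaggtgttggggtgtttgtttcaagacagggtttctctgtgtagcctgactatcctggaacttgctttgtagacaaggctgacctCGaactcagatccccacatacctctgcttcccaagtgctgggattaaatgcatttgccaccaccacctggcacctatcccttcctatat

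The melatonin peak at Zfp583 covered 48 bases of the window and had 13.8 normalized ChIP tags, which are tags per 10000000 tags of the library, at 4.84-fold over input. The untreated peaks covered all 300 bases of both other windows, with 15.5 normalized tags and 7.51-fold over input at 1700010L04Rik and 11.7 normalized tags and 4.97-fold at Gm28077. The windows hold 3, 4 and 2 CG in the order printed, against a median of 7 over the 32619 promoter windows of the table, of which 31%, 37.7% and 23% hold no more CG than these. Their GC contents are 49.3%, 45.7% and 47%, against a median of 53%. Neither TATAAA nor the E-box CACGTG was found on either strand of the 3 windows, while 13.7% and 7.2% of all windows hold them. The letters of other peaks were not analysed here.

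Chromosome 7 held 85 melatonin peaks (exact 95% Poisson interval 67.9 to 105) and 81 untreated peaks (64.3 to 101). Chromosome 16 held 95 melatonin peaks (76.9 to 116) and 97 untreated peaks (78.7 to 118). The intervals cover counting error only. The densities that chose them were 0.585 peaks per Mb with melatonin and 0.557 untreated on chromosome 7, and 0.969 with melatonin and 0.989 untreated on chromosome 16. Chromosome 4, the next autosome, lay just outside the choice with 1.5 peaks per Mb with melatonin and 1.67 untreated, and the 17 other autosomes together had 3.38 and 3.68. The X chromosome was lower still, with 0.211 in both lists. Together the 2 chromosomes made up 9.89% of the autosomal span and held 2.35% of the autosomal peaks with melatonin (95% Wilson interval 2.03 to 2.71) and 2.14% untreated (1.85 to 2.47).

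The names of the peaks carry a number that runs within each chromosome, and the listed peaks use only some of these numbers. Summed over the chromosomes, the highest numbers come to 50067 of the 50208 putative peaks that the header counts with melatonin and 60584 of the 60771 untreated, 99.7% in both. The highest number was therefore read as a lower bound on the candidate regions of a chromosome, although the headers do not explain it. It was 348 with melatonin and 312 untreated on chromosome 7, and 295 with melatonin and 334 untreated on chromosome 16. Per Mb, that is 2.39 and 2.15 on chromosome 7 and 3.01 and 3.41 on chromosome 16, against 22.1 with melatonin and 26.8 untreated on the 17 other autosomes. Against the other autosomes, the highest numbers were thus lower by a larger factor than the listed peaks. The peaks that stayed in the list made up 24.4% of the highest number with melatonin (Wilson 20.2 to 29.2) and 26.0% untreated (21.4 to 31.1) on chromosome 7, and 32.2% with melatonin (27.1 to 37.7) and 29.0% untreated (24.4 to 34.1) on chromosome 16. The other autosomes kept 15.2% with melatonin and 13.7% untreated. Chromosome 16 ranked first and chromosome 7 second of the 19 autosomes in this share in both lists, and chromosome 4 followed with 19.4% and 16.8%. The X chromosome, also sparse, kept 10.7% with melatonin and 6.52% untreated. Total input tags per chromosome were not analysed here.

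**Figure D1:**
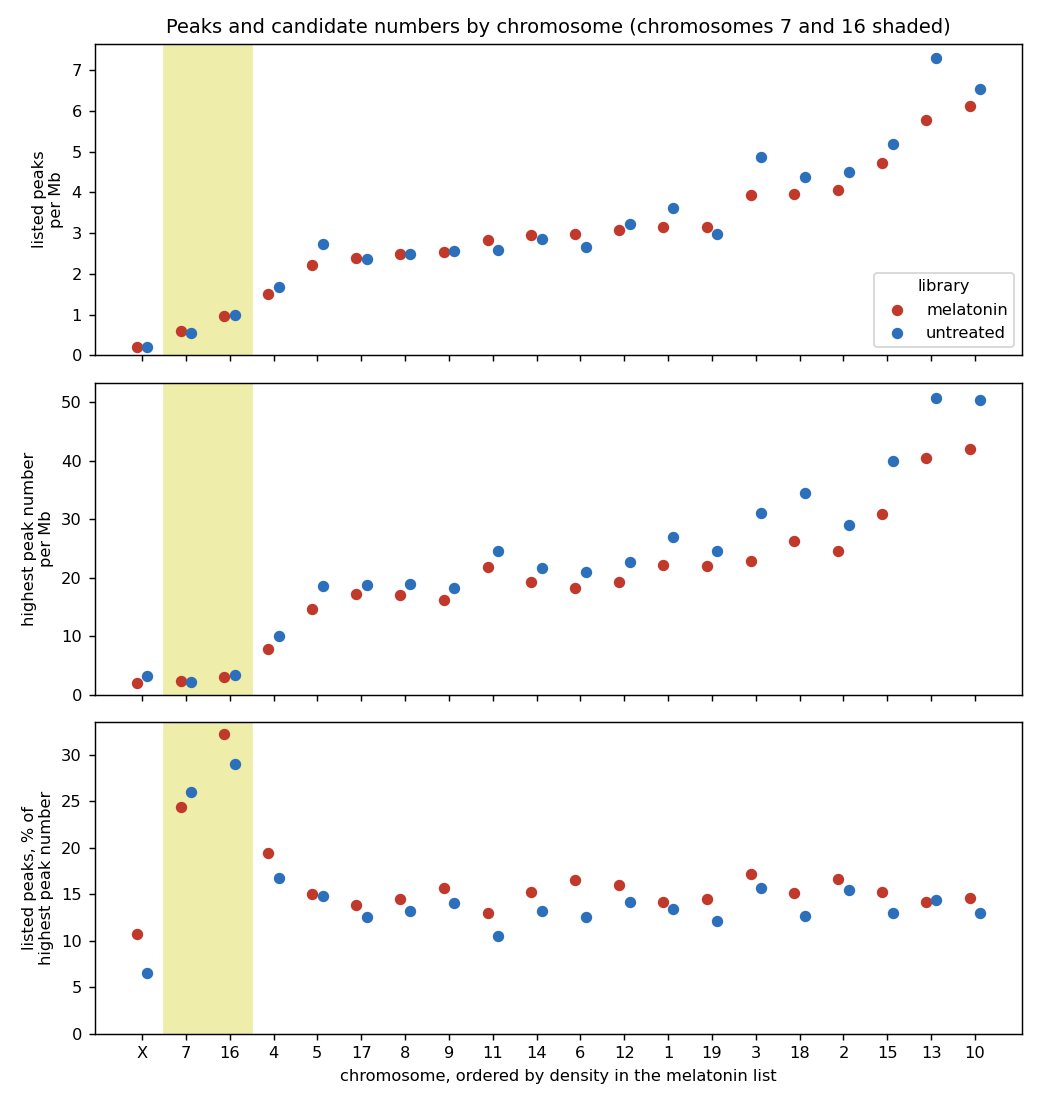
Listed peaks per Mb (top), highest peak number per Mb (middle) and listed peaks as a percentage of the highest peak number (bottom) for each chromosome, with 1 point for each library and chromosomes 7 and 16 shaded. Both shaded chromosomes lie low in the upper panels, at 0.557 to 0.989 peaks per Mb, and highest in the lower one, at 24.4% to 32.2%.

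The median fold over input on chromosomes 7 and 16 was slightly above that of the other autosomes together, at nearly the same number of ChIP tags. Fold and tags come from the same peak calls that set the density, so they are given as a description. The median fold was 5.51 with melatonin and 5.27 untreated on chromosome 7, 5.22 and 5.27 on chromosome 16, and 5.11 and 4.87 on the other autosomes. With melatonin, chromosomes 1 and 12 also stood at 5.22 and chromosome 5 at 5.36. For both chromosomes together the median was 5.36 with melatonin (95% order-statistic interval over peaks 5.07 to 5.65) and 5.27 untreated (4.98 to 5.68), and the first of these intervals includes the 5.11 of the other autosomes. A fold of 10 or more was listed for 24 of the 180 melatonin peaks (13.3%, Wilson 9.13 to 19.1) and for 15 of the 178 untreated peaks (8.43%, 5.17 to 13.4), while the other autosomes had 7.55% with melatonin and 3.94% untreated. The middle 50% of folds lay between 4.63 and 7.19 in the melatonin list and between 4.62 and 6.84 in the untreated list, against 4.47 to 6.38 and 4.36 to 5.93 on the other autosomes, so most folds overlap.

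The median peak had 13 normalized tags with melatonin and 13.3 untreated, against 13.4 and 13.6 on the other autosomes. Per kb of peak the medians were 15.9 ChIP tags with melatonin and 17.5 untreated, against 16.1 and 17.5. The median input under a peak was 3 tags with melatonin and 3.5 untreated, against 3.5 and 3.9 on the other autosomes. An input of at most 1 tag lay under 15 melatonin peaks (8.33%) and 6 untreated peaks (3.37%), against 4.36% and 0.871% elsewhere. Peaks of exactly 1000 bp, a single window, made up 84.4% with melatonin and 86.5% untreated, against 79.0% and 79.5%. Together the peaks covered 192 kb with melatonin and 186 kb untreated.

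**Figure D2:**
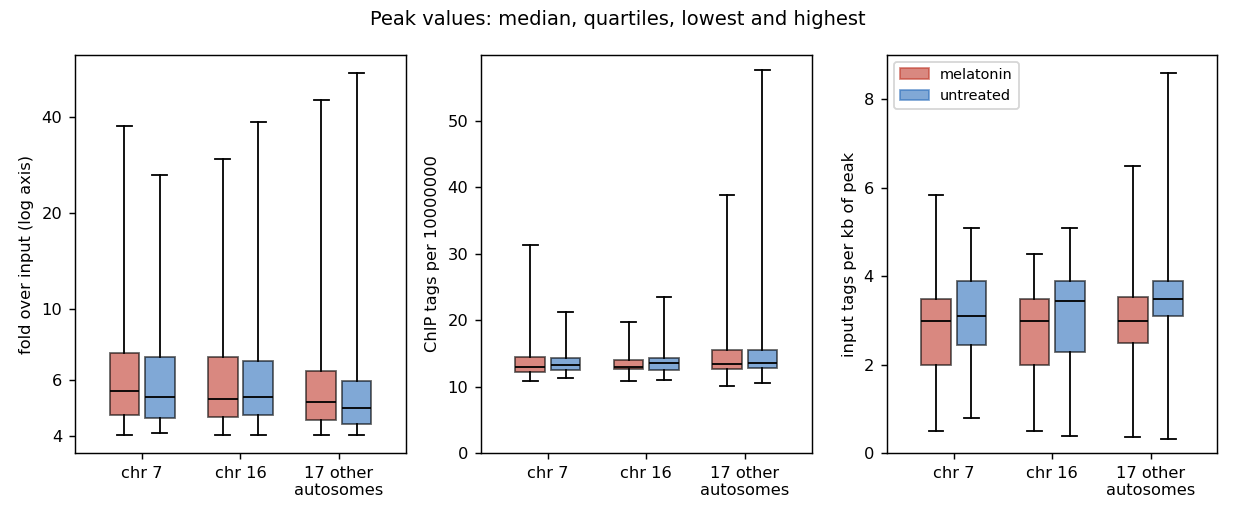
Fold over input on a log axis, normalized ChIP tags and input tags per kb of peak for chromosome 7, chromosome 16 and the 17 other autosomes, melatonin left of untreated, with boxes for the quartiles, a line for the median and whiskers to the lowest and highest peak. Median folds are 5.22 to 5.51 on chromosomes 7 and 16 and 5.11 and 4.87 elsewhere, and the boxes overlap in every panel.

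The highest folds rested on almost no input. The melatonin peak at chr7:89999151-90000151 had 37.4-fold over input with 15.2 normalized tags on 0.5 input tags. It lay 18.2 kb from Eed, which encodes a subunit of the Polycomb complex that writes H3K27me3. An untreated peak overlapped it by 404 bp at 5.45-fold, with 12.9 normalized tags on 3.1 input tags. The untreated peak at chr16:81447578-81448578 in Ncam2, a neural cell adhesion molecule, had 38.5-fold with 11.4 normalized tags on 0.4 input tags. The ChIP tags of the peak near Eed were above the upper quartile of 14.5 for melatonin peaks on chromosome 7, but below the highest there, 31.4. Those of the Ncam2 peak were below the lower quartile of 12.5 for untreated peaks on chromosome 16. The input tags of each were the lowest of its list on these chromosomes. The other melatonin peaks above 20-fold lay between genes, at 35.6-fold 64.5 kb from Lrrc28, at 33.0-fold 24.3 kb from Klf13, at 31.3-fold 35.5 kb from Tlnrd1 and at 29.6-fold 21.5 kb from Tmem44, each on 0.5 input tags. The other untreated peaks above 20-fold, at 26.3-fold, 25-fold, 21.1-fold and, in 2 of them, 20.5-fold, each rested on 0.8 input tags.

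The peak with the most tags was also the widest. This melatonin peak in Trim66, which encodes a chromatin-binding member of the tripartite motif family, was 2495 bp wide and had 31.4 normalized tags at 7.04-fold. The second most tags, 30.0 normalized at 4.11-fold, lay in a melatonin peak of 1542 bp on chromosome 7, 33.0 kb from Gvin1. The next widest was a melatonin peak of 1820 bp with 24.0 normalized tags at 5.91-fold, 16.4 kb from D7Ertd443e and 132 kb from Dock1. A melatonin peak of 1745 bp in Nav2 followed, with 21.9 tags at 13.5-fold. On chromosome 16 the widest was an untreated peak of 1664 bp with 23.5 tags at 4.97-fold in the noncoding gene Gm30507, 41.1 kb from Nrip1, which encodes a nuclear receptor corepressor. It was followed by an untreated peak of 1598 bp with 21.6 tags at 5.22-fold in Phldb2, a protein that anchors microtubules at the cell edge, and by a melatonin peak of 1578 bp with 19.7 tags at 9.74-fold, 21.7 kb from Litaf. The other autosomes reached 3064 bp with melatonin and 4345 bp untreated.

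The share of peaks in gene bodies was lower on chromosome 16 than on chromosome 7 in both lists, although the untreated intervals overlap. Protein-coding gene bodies held 29 of the 85 melatonin peaks (34.1%, Wilson 24.9 to 44.7) and 30 of the 81 untreated peaks (37.0%, 27.3 to 47.9) on chromosome 7, but 15 of 95 (15.8%, 9.81 to 24.4) and 23 of 97 (23.7%, 16.4 to 33.1) on chromosome 16. The other autosomes together had 29.4% with melatonin and 28% untreated. Taken singly they ranged from 20.8% to 42.1% with melatonin and from 17.6% to 41.5% untreated. Such bodies span 40.2% of chromosome 7, 39.9% of chromosome 16 and 40% of the others. In each list the share in bodies was below the share of the span, but on chromosome 7 both intervals include the 40.2%. Chromosome 7 is the autosome with the most protein-coding genes per Mb, 14.0, against 6.92 on chromosome 16 and 8.1 on the others. From a peak to the closest protein-coding gene, the median distance was 6.77 kb for melatonin peaks and 8.18 kb for untreated peaks on chromosome 7, and 32.8 kb and 58.5 kb on chromosome 16. Over both chromosomes 106 melatonin peaks (58.9%) and 107 untreated peaks (60.1%) touched no gene of any kind, against 55.1% and 57.2% on the other autosomes.

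Genes of chromosomes 7 and 16 with a peak in the body or within 2 kb of it were as scarce as the peaks themselves, so their number is another view of the density. They were 40 of 2709 protein-coding genes (1.48%, Wilson 1.09 to 2) in each list, where 6.01% of all protein-coding genes had one with melatonin and 5.78% untreated. On the other autosomes the shares were 6.97% and 6.71%. Chromosome 7 had 25 such genes with melatonin and 20 untreated of 2030, and chromosome 16 had 15 and 20 of 679. In all 69 genes had a peak in either list, of which 11 had one in both, 29 with melatonin alone and 29 untreated alone. Many of them were long. The median length of the 69 was 116 kb, against 10.3 kb for all protein-coding genes of chromosome 7 and 21.8 kb for those of chromosome 16. The same held on the other autosomes, where genes with a peak had a median length of 118 kb with melatonin and 122 kb untreated, against 18.5 kb for all genes.

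On chromosome 7, the genes with a peak in both libraries were Nav2, Gas2, Atp10a, Slco3a1, Dlg2, Mrvi1 and Pde3b. Gas2, a protein that links actin filaments with microtubules, held 2 melatonin peaks of 4.35-fold and 4.78-fold, against 6 untreated peaks of 4.10-fold to 6.59-fold. The last untreated peak of Gas2 also lay within 2 kb of Svip, a small inhibitor of protein degradation at the endoplasmic reticulum. Nav2, a neuron navigator that responds to retinoic acid in neural cells, held 3 melatonin peaks of 5.91-fold, 13.5-fold and 4.13-fold, against 1 untreated peak of 6.77-fold. None of the peaks of Gas2 or Nav2 overlapped between the libraries, and over all chromosomes only 6.12% of melatonin and 5.6% of untreated peaks did.

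Dlg2, the scaffold PSD-93 of synapses and 1973 kb long, held 3 melatonin peaks of 5.51-fold, 4.78-fold and 8.04-fold, against 4 untreated peaks of 4.70-fold, 7.51-fold, 6.23-fold and 5.29-fold. Atp10a, a phospholipid flippase, held 1 melatonin peak of 4.93-fold, against 3 untreated peaks of 7.05-fold, 4.31-fold and 4.31-fold. Slco3a1, an organic anion transporter, held 2 melatonin peaks of 4.26-fold and 5.91-fold, against 1 untreated peak of 5.13-fold. Folds above and below one another thus occurred in both directions within these genes. Pde3b, a phosphodiesterase that breaks down cAMP in fat cells, held 1 melatonin peak of 5.51-fold, against 2 untreated peaks of 5.13-fold and 6.02-fold. Mrvi1, a target of cGMP kinase in smooth muscle, held 1 melatonin peak of 6.26-fold, against 1 untreated peak of 4.81-fold.

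On chromosome 16, the genes with a peak in both libraries were Zbtb20, Cd200r3, Cmss1 and Filip1l. Zbtb20, a zinc finger repressor of transcription, held 1 melatonin peak of 15.2-fold on 1 input tag, against 2 untreated peaks of 6.84-fold and 4.54-fold on 2.3 and 4.3 input tags. Cmss1 and Filip1l overlap and share peaks, so they are not separate observations. Together they held 2 melatonin peaks of 4.02-fold each, against 3 untreated peaks of 4.43-fold, 7.26-fold and 9.23-fold. Cd200r3, a receptor of the CD200R family of myeloid cells, held 1 melatonin peak of 4.13-fold, against 1 untreated peak of 4.87-fold.

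**Figure D3:**
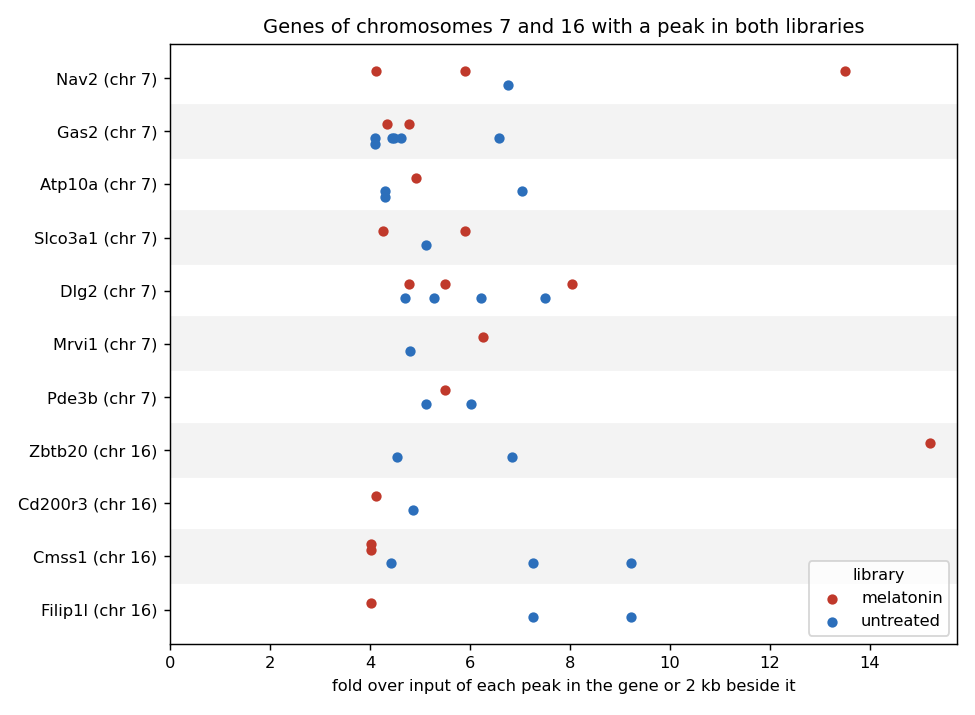
Fold over input of every peak in the 11 genes of chromosomes 7 and 16 that held a peak in both libraries, melatonin above untreated within each gene; equal folds are drawn one above the other. Most points lie near the required fold of 4, and the highest are the melatonin peaks of Zbtb20 at 15.2 and of Nav2 at 13.5.

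Among the genes with melatonin peaks alone, the highest folds on chromosome 16 were 15.7 in Ildr1, a receptor at the junctions between epithelial cells, 10.4 in Scaf4, which binds the tail of RNA polymerase II, 7.83 in Myh11, the smooth muscle myosin heavy chain, and 5.91 in Il1rap, the accessory protein of the interleukin 1 receptor. On chromosome 7 they were 8.04 at Arntl, 7.65 in Dnah3, a dynein of cilia, and 7.61 in Rab38, a small GTPase of pigment granules. Among the genes with untreated peaks alone, those on chromosome 16 were led by Ncam2, described above, followed by 12.2 in Parn, which removes poly(A) tails, 11.5 in Mb21d2 and 10.2 in Pla1a, a phospholipase. On chromosome 7 the highest was 9.93 in Ano1, a chloride channel opened by calcium, followed by 7.69 in Arhgap35. Trp63, which encodes the epithelial transcription factor p63, held no melatonin peak, against 2 untreated peaks of 8.76-fold and 6.69-fold. By tags, Shisa9 held an untreated peak of 19.3 normalized tags at 5.03-fold. Trpm1 held 2 untreated peaks, of 14.4 normalized tags at 4.87-fold and 19.3 at 4.36-fold. Gramd1c held a melatonin peak of 13.4 normalized tags at 5.51-fold. A gene listed in a single library is not shown to differ between the conditions, since 29 genes fell on each side and 11 in both.

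Arntl, which encodes the clock protein BMAL1, is the partner of CLOCK in the daily transcription loop, and Dbp is among the genes they switch on. The melatonin list held a peak at chr7:113177043-113178043 with 13 normalized tags on 2 input tags and 8.04-fold over input. Its midpoint lay 0.928 kb before the first base of the Arntl gene record. A further melatonin peak of 4.47-fold lay 11.5 kb inside the record. Among the promoter windows, however, the closest Arntl start was 17.4 kb from the midpoint of this inner peak. For the outer peak no start of any gene was closer than 25.9 kb, so neither peak lay at the Arntl start of those windows. The untreated list held none in the gene, and its nearest peak, at 6.23-fold, had its midpoint 11.8 kb before the first base of the record. Dbp, the other clock gene on these chromosomes among 5 looked up, had no peak within 3489 kb with melatonin or 1358 kb untreated.

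Runx1, a transcription factor of blood stem cells and of the skeleton, held 1 melatonin peak of 5.07-fold and no untreated peak. The 1 Mb before its start held 4 melatonin peaks and 9 untreated peaks, and the 1 Mb on either side held 6 and 10. Runx1 was the one gene with a peak among 24 osteoblast, stromal and growth factor genes on the 2 chromosomes, 1 with melatonin and 0 untreated, beside the 1.48% of all protein-coding genes of these chromosomes, so the count says nothing about the list. Ccnd1, cyclin D1, had its nearest peak 101 kb away with melatonin and 25.5 kb untreated. Mef2a, a transcription factor of muscle, had its nearest 71.5 kb away with melatonin and 5.86 kb untreated, and Igf1r, the receptor of insulin-like growth factor 1, had its nearest 503 kb and 569 kb away.

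In the other gene groups 0 to 2 members held a peak in a list. The lists were made with earlier results of these data known and get no test, and their counts stand beside the 1.48% of all protein-coding genes of the 2 chromosomes that held a peak in each list. Of 20 neuronal adhesion and guidance genes, 2 (10%) held a melatonin peak, Dlg2 and Dscam, and 2 (10%) held an untreated peak, Dlg2 and Ncam2. The median length of these 20 genes is 509 kb, against 12.1 kb for all protein-coding genes of the 2 chromosomes, and the axon guidance receptors Robo1 and Robo2, although both are longer than that median, held none. Of 20 genes whose human orthologues lie on chromosome 21, 2 (10%) held a melatonin peak, Runx1 and Dscam, at 4.47-fold in Dscam, and 1 (5%) held an untreated peak, Ncam2. App, the precursor of amyloid beta, and Sod1, superoxide dismutase, held none. Genes of this list have a median length of 99.9 kb.

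Of 18 protein-coding imprinted genes, which are expressed from the copy of a single parent, 1 (5.56%) held a melatonin peak, Atp10a, and 2 (11.1%) held an untreated peak, Atp10a and the potassium channel gene Kcnq1, at 4.43-fold in Kcnq1. The median length of the 18 genes is 15.6 kb, while Atp10a spans 174 kb and Kcnq1 320 kb. Snrpn, at 468 kb, held no peak. Igf2 had its nearest peak 181 kb away with melatonin and 685 kb untreated. None of 19 senescence and housekeeping genes held a peak in either list, among them Bax, Mapk3 and the ribosomal protein gene Rps3. Their median length is 5.81 kb. None of 453 olfactory and vomeronasal receptor genes did either, with a median length of 0.951 kb. Where 1.48% of all genes held a peak, a count of 0 among 19 says nothing about that list.

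Part of the peaks on chromosomes 7 and 16 still stood close together. Of the 245 windows of 1 Mb on the 2 chromosomes, 92 held a melatonin peak and 84 an untreated peak, 60 held both, and 129 (52.7%) held neither, against 25.5% of the 2225 windows on the other autosomes. With so many fewer peaks more windows stay empty, so this share is another view of the density. Over both lists, 21 windows with at least 5 peaks held 172 of the 358 peaks (48%). That share was 59.9% on chromosome 16, 34.3% on chromosome 7 and 89.8% on the other autosomes. Another peak of the same list lay within 100 kb of 45.6% of the melatonin peaks and 51.7% of the untreated peaks, against 78.2% and 81.1% on the other autosomes.

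The fullest windows of chromosome 16 lay largely between genes. The window that starts at 25000001 held 8 melatonin and 7 untreated peaks around Tprg and Trp63, at 4.35-fold to 16.1-fold with melatonin and 4.04-fold to 8.76-fold untreated. The window from 51000001, which holds no protein-coding gene, had 2 melatonin peaks of 5.39-fold and 8.48-fold, against 10 untreated peaks of 4.61-fold to 9.23-fold. All lie between Ccdc54 and Cblb, which encodes a ubiquitin ligase that restrains T cell activation. In the 1 Mb before the start of Cblb there were 3 melatonin and 11 untreated peaks. The window from 49000001 held 6 melatonin and 5 untreated peaks around Ift57, a protein of cilia, and Cd47, the cell surface signal that holds off macrophages.

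Bcl6, a transcriptional repressor known from germinal centre B cells, had 9 melatonin and 5 untreated peaks within 1 Mb of its start, 6 and 3 of them before it. Nrip1 had 9 and 5 within 1 Mb, but 3 and 4 within 500 kb and 1 and 2 within 100 kb. The 1 Mb on either side of Runx1 and Cblb held more untreated peaks and that of Bcl6 more melatonin peaks, in lists of nearly equal length on these chromosomes. These starts were chosen after their peaks had been seen.

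On chromosome 7 the fullest window, from 92000001, held 8 melatonin and 5 untreated peaks in and after Dlg2 and in Rab30, a small GTPase of the Golgi. The window from 51000001, which holds Gas2, had 3 melatonin and 8 untreated peaks, with 1 melatonin peak of 5.36-fold in Slc17a6. The window from 74000001 had 7 melatonin peaks of 4.26-fold to 10.4-fold, against 3 untreated peaks of 4.49-fold to 7.26-fold, in Slco3a1 and on toward Sv2b. Near the end of the chromosome, 6 melatonin and 5 untreated peaks lay within 1 Mb of the start of Fgf4, a fibroblast growth factor that lies by Ccnd1. Fgf4 starts at 144861386 and the last gene ends at 145324059, so less than 1 Mb of annotated chromosome lies after that start.

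**Figure D4:**
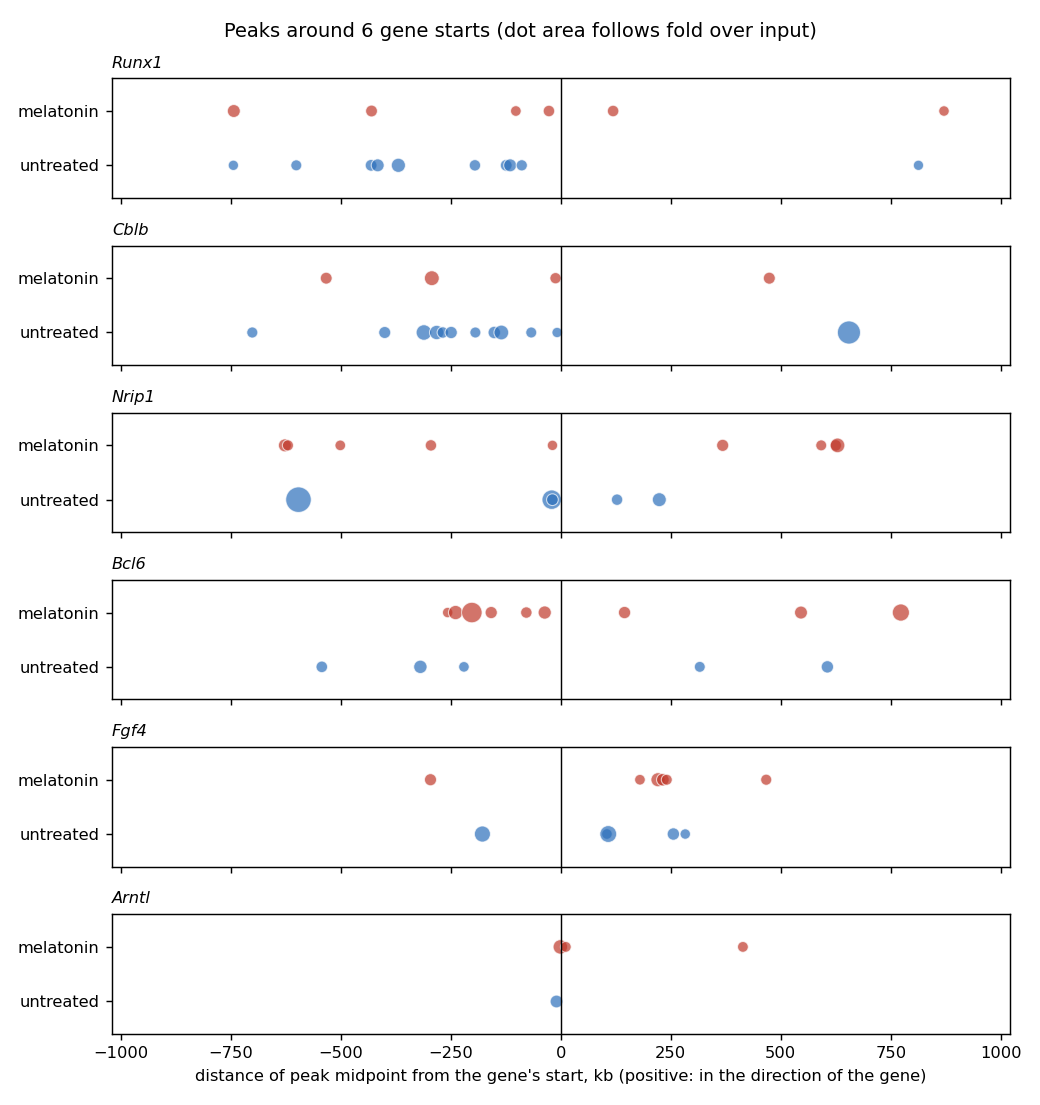
Peak midpoints within 1000 kb of the starts of the gene records of Runx1, Cblb, Nrip1, Bcl6, Fgf4 and Arntl, melatonin above untreated. Dot area follows the fold over input, and positive distances lie in the direction of the gene. The start of a record can differ from the start in the promoter windows, as for Arntl. Untreated dots are more numerous before the starts of Runx1 (4 with melatonin, 9 untreated) and Cblb (3 and 11), and melatonin dots before that of Bcl6 (6 and 3).

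Peak-free stretches on the 2 chromosomes were long, which is again a view of their density. The longest, with no peak of either list from 65463498 to 75744324 on chromosome 16, spans 10.3 Mb and 11 protein-coding genes, among them Cadm2, Robo1 and Robo2. The next, from 6330433 to 16450660 on chromosome 7, spans 10.1 Mb with 138 protein-coding genes, of which 53 are vomeronasal receptor, 8 olfactory receptor and 14 Zfp zinc finger genes. The stretch from 39585673 to 47068340 on chromosome 7 spans 7.48 Mb with 203 protein-coding genes, among them 26 kallikrein genes, and that from 51995865 to 58671250 spans 6.68 Mb with 13. Gene-rich and gene-poor stretches thus both lacked peaks. On the other autosomes the longest such stretch was 8.6 Mb, on chromosome 15.

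Of the 180 melatonin peaks, 9 overlapped an untreated peak by at least 1 bp (5.0%, Wilson 2.65 to 9.23), as did 9 of the 178 untreated peaks with melatonin peaks (5.06%, 2.68 to 9.33). Over all chromosomes 6.12% of the melatonin peaks and 5.6% of the untreated peaks overlapped, so the share on chromosomes 7 and 16 is close to that background. The pair that shared most, 905 bp, lay 18.3 kb from Nrip1, at 4.13-fold with melatonin and 5.27-fold untreated. Inside a protein-coding gene there was 1 pair, in Dlg2, at 4.78-fold with melatonin and 7.51-fold untreated. The pair near Ift57 stood at 4.13-fold with melatonin and 9.48-fold untreated, on 4 and 2 input tags. The other pairs lay nearest to Nfkbiz, Setd4, Slco3a1, Eed, Ccdc90b and Wdr11. No pair had a fold of 6 or more in both libraries.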

How the data were processed

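H3K36me2 ChIP-seq peaks of 1 melatonin and 1 untreated library of mouse MSCs were read from 2 lists. Per the file headers, each list was made with HOMER findPeaks in histone style against its own input library, without pooling, and the local background filter was off. Per the submitters' processing notes, MACS2 2.1.0, BWA 0.7.13 and Picard 1.126 were in use. MACS2 is not in the headers, and the version of HOMER is not given in the sources used here. Per the file headers, the normalized tags are a deposited signal of ChIP tags per 10000000 library tags, and the ChIP and input tags are a deposited signal with the deeper library scaled down. The findPeaks score is the authors' score of a region. The fold is the authors' ratio of those tags in ChIP and input. The deposited p-value against input is a Poisson p for each peak, without adjustment. All folds printed are the authors' own values and only describe or rank peaks.

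The processing notes name mm39, but the last peak on chromosome 7 ends at 145328623, beyond that chromosome in mm39. The share of peak midpoints in gene bodies was lowest with no shift among shifts of up to 500 kb against GRCm38.p6. Coordinates were read as GRCm38. Repeats and gaps in the assembly were not analysed.

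The 2 chromosomes, the gene lists and the rules were chosen with earlier results of these data known. Peaks were assigned to protein-coding bodies of the RefSeq table, then to 2 kb flanks, other gene bodies or no gene. Named genes were, predicted genes aside, those with a peak in both libraries, those with the 5 highest folds or the 3 highest tag numbers per chromosome and list, those with 3 or more peaks in a list, list members with a peak, and genes in the 3 fullest 1 Mb windows and 3 widest peaks per chromosome. Genes near intergenic peaks, in peak-free stretches and at plotted starts were added after their values were seen. Intervals are exact Poisson for counts and Wilson for shares, and cover counting error only. Python 3.11.15, pandas 2.3.3, numpy 2.4.6 and scipy 1.17.1 were used, and the assignment and overlap steps were tested on simulated data. Alternatives were a fold of at least 6, a p-value of 1e-05, equal list lengths, widths of 1000 bp alone, other overlap rules, 10 kb flanks and 2 Mb windows.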

Additional observations from a re-analysis of the deposited data

How the results depend on the processing

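For 20 values, 56 alternatives were computed, of which 31 were classed as the same and 25 as moved. A share or median was classed by whether it stayed within the interval of the main value. A count was classed by its ratio to the main count, so a moved count can still lie within its Poisson interval. Each value is a count, a share or a median without a direction, so a turn of direction was not tested. A fold of at least 6 left 66 melatonin and 62 untreated peaks on chromosomes 7 and 16, 2.86% and 3.08% of the autosomal peaks, and 0 overlaps in both lists. Lists limited to the 3849 peaks with the lowest p left 87 melatonin and 86 untreated peaks on the 2 chromosomes. Their median folds were 7.39 and 7.05, against 6.38 and 5.98 on the other autosomes. Their median normalized tags were 13.8 with melatonin and 13.6 untreated, against 14.8 and 15.5 on the other autosomes. With widths of 1000 bp alone the other autosomes had medians of 13 and 13.3 normalized tags and an untreated median fold of 4.84. Midpoints within 5 kb gave 15 melatonin and 16 untreated peaks with a partner. Flanks of 10 kb gave 67 genes with melatonin, and 37.2% of melatonin and 38.8% of untreated peaks in or near genes. Windows of 2 Mb held a melatonin peak in 56.9% and an untreated peak in 50.4%. Wider windows, wider flanks and stricter limits move these counts by their construction. No paired analysis was possible because each condition has 1 library. Few tags per peak limit the precision of every fold.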
